A study of Glycine max with 12 samples.

Results

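The effect of a nano-SiO2 leaf spray on soybean leaf transcripts was measured across both melatonin backgrounds of the experiment: 6 libraries of sprayed plants (3 with nano-SiO2, 3 with nano-SiO2+MT) were set against 6 libraries without it (3 control, 3 MT), with melatonin as a covariate. All 12 libraries of the series entered the comparison. The plants were wild-type soybean of cultivar HN95, grown in pots of 20 kg of soil that received 3 L of a saline-alkali solution (NaCl and Na2CO3 at 40 mM each, NaHCO3 and Na2SO4 at 320 mM each), so the control and every treated group carried the same stress. Nano-SiO2 was given at 200 mg/L and melatonin (MT) at 300 µM, alone or together, and leaves were taken 7 days after the foliar spray. The labels do not say what the control plants were sprayed with, and no unstressed group was analysed here. Of 46446 genes in the table, 28260 reached 1 FPKM (fragments corrected for transcript length and sequencing depth) in at least 3 libraries and were tested. In the averaged comparison 9 genes passed an adjusted p under 0.05. In all 9 the libraries with nano-SiO2 lay on the same side of those without it in both backgrounds, as in 0.711% of all tested genes. The 9 were called on the average of these same values, so this describes them and is no further support.

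Silica reaches plant cells as silicic acid, which crosses membranes through channels of the aquaporin family, and silica particles are also used as carriers for other compounds. Melatonin is an indoleamine that plants make from tryptophan. Several families met below are known in legume leaves as stores of nitrogen or as defences. Vegetative storage proteins are vacuolar glycoproteins of the acid phosphatase family that soybean leaves fill and empty with the nitrogen demand of the plant and that respond to jasmonate. Kunitz-type inhibitors block serine proteases, arginase splits arginine into ornithine and urea, and copper amine oxidases break down amines with release of hydrogen peroxide. Gene names are the descriptions in the authors' table.

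Nano-SiO2 raised 7 genes and lowered 2 when averaged over the backgrounds. Those that rose were a pair of stem 31 kDa glycoproteins (vegetative storage proteins), an arginase, a copper amine oxidase, an endochitinase and a pair of genes without a known product. Both genes that fell encode trypsin inhibitors. The 9 calls are 0.0318% of the genes tested (0.0248% higher, 0.00708% lower; limma with Benjamini-Hochberg adjustment over all tested genes), and 1526 genes had an unadjusted p under 0.05. In the same model, melatonin averaged over the nano-SiO2 backgrounds called 1923 genes (6.8%). Changes below are differences of log2(FPKM + 1), which understate the change of genes with low FPKM.

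Glyma.07G014500, on chromosome 7, encodes a stem 31 kDa glycoprotein also listed as vegetative storage protein VSP25, and it had the largest change of the 9 on the log2(FPKM + 1) scale. With a pseudocount of 0.1 its change was 3.32, below those of Glyma.02G156800 (4.34) and Glyma.08G200100 (4.18), whose low control values weigh more on that scale. It stood at 4.87, 5.86 and 6.50 FPKM in the control libraries and at 179, 109 and 156 FPKM with nano-SiO2. In the melatonin background it stood at 31.5, 21.9 and 34.5 FPKM with MT alone and at 111, 139 and 98.7 FPKM with nano-SiO2+MT. Every library with nano-SiO2 was therefore above every library without it, in both backgrounds together, and the 2 silica groups overlapped each other while the MT group lay well above the control. The ratio of mean FPKM was 25.8 without melatonin and 3.96 with it. The averaged log2 change was 3.20 ± 0.37 (SE; limma adjusted p = 0.00847), with 4.44 in the absence and 1.96 in the presence of melatonin.

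The second storage protein, Glyma.08G200100 on chromosome 8, described as a stem 31 kDa glycoprotein precursor, followed the same order of groups at a lower level. Control libraries held 0.124, 0.180 and 0.173 FPKM, and nano-SiO2 libraries 20.2, 19.6 and 15.5 FPKM. MT libraries held 2.21, 1.53 and 4.64 FPKM, and nano-SiO2+MT libraries 8.71, 13.9 and 14.1 FPKM. The 6 libraries with nano-SiO2 again exceeded all 6 without it. On average the log2 change was 2.96 ± 0.35 (limma adjusted p = 0.00847), made up of 4.06 without and 1.86 with melatonin. The third vegetative storage protein in the table never exceeded 0.771 FPKM and was not tested. These genes belong to a family of close copies, and the labels do not say how reads shared between copies were divided.

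Glyma.02G156800, on chromosome 2, is a hypothetical protein whose gene ontology terms in the table are calcium, manganese and carbohydrate binding. It had the smallest adjusted p of the comparison. It was nearly absent from the control libraries, at 0.136, 0.235 and 0.137 FPKM, and reached 16.9, 20.2 and 10.8 FPKM with nano-SiO2. With MT it held 1.712, 0.966 and 1.342 FPKM, against 7.14, 13.01 and 9.91 FPKM with nano-SiO2+MT. As with the storage proteins, no library with nano-SiO2 was as low as any without it, whatever the melatonin status. Its averaged log2 change was 3.02 ± 0.27 (limma adjusted p = 0.00159), 3.82 without and 2.21 with melatonin.

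**Figure D1:**
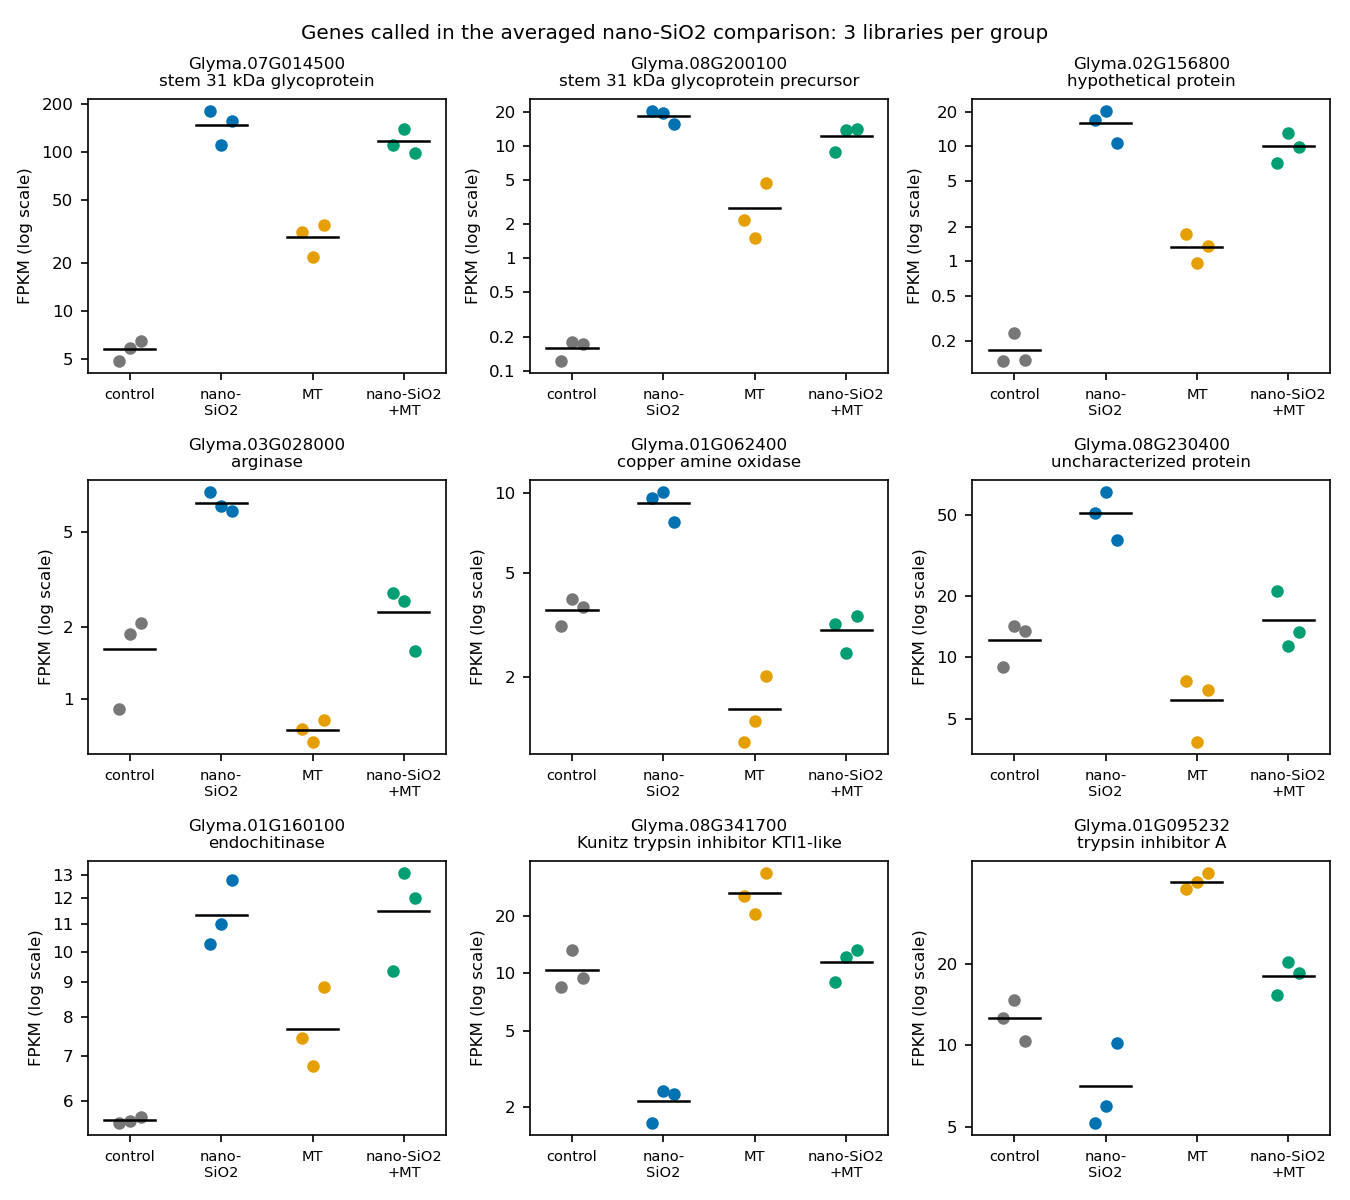
FPKM (log scale, a separate range per panel) of the 9 genes called in the averaged comparison; points are libraries, 3 per group, and lines are group means. In each panel the nano-SiO2 points lie on one side of the control points and the nano-SiO2+MT points on the same side of the MT points, with both trypsin inhibitors in the downward direction.

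Among enzymes of arginine and amine turnover, 2 of 30 tested genes were called, both higher, against 0.0318% of all tested genes. Glyma.03G028000, an arginase on chromosome 3, held 0.910, 1.86 and 2.08 FPKM in control and 7.31, 6.44 and 6.13 FPKM in nano-SiO2 libraries. It held 0.748, 0.662 and 0.812 FPKM with MT and 2.77, 2.57 and 1.59 FPKM with nano-SiO2+MT. Within each background the groups did not overlap, but the nano-SiO2+MT libraries reached only into the range of the untreated control and just above it. The averaged log2 change was 1.24 ± 0.16 (limma adjusted p = 0.00847). The other arginases of the table that were tested, Glyma.01G140200 and Glyma.17G131300 (both described as mitochondrial arginase 1), had averaged log2 changes of 0.14 and 0.10 and did not pass (limma adjusted p = 0.886 and 0.907).

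Glyma.01G062400, a putative copper amine oxidase on chromosome 1, stood at 3.12, 3.95 and 3.70 FPKM in control, 9.57, 10.1 and 7.81 FPKM with nano-SiO2, 1.14, 1.36 and 2.03 FPKM with MT and 3.20, 2.47 and 3.42 FPKM with both sprays. Its values in the combined spray were thus about those of the control, above MT alone and far below nano-SiO2 alone. Its averaged log2 change was 0.92 ± 0.12 (limma adjusted p = 0.0166). The median averaged change over the 30 genes of this list was 0.08, against 0.04 over all tested genes, and 23 of the 30 were above 0, against 64.3% of all tested genes; a further 19 members were not tested.

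Of 14 chitinases tested 1 was called, against 0.0318% of all tested genes. This was Glyma.01G160100, an endochitinase on chromosome 1 of the kind that cleaves chitin of fungal walls. It held 5.57, 5.60 and 5.69 FPKM in control and 10.3, 11.0 and 12.8 FPKM with nano-SiO2. The MT libraries held 7.43, 6.77 and 8.85 FPKM and the nano-SiO2+MT libraries 9.37, 13.1 and 12.0 FPKM. Its averaged log2 change of 0.71 ± 0.11 (limma adjusted p = 0.0426) was the smallest among the 9, and it was called together with Glyma.01G095232 at the least margin. Glyma.08G230400, an uncharacterized protein gene on chromosome 8, held 8.95, 14.3 and 13.4 FPKM in control, 50.8, 64.5 and 37.8 FPKM with nano-SiO2, 7.69, 3.87 and 6.89 FPKM with MT and 21.1, 11.3 and 13.3 FPKM with nano-SiO2+MT. On average the log2 change was 1.58 ± 0.22 (limma adjusted p = 0.0248), and here the combined spray overlapped the control.

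The genes that fell were both trypsin inhibitors. Glyma.08G341700, a KTI1-like Kunitz inhibitor on chromosome 8, held 8.46, 13.3 and 9.46 FPKM in control and 1.66, 2.43 and 2.34 FPKM with nano-SiO2. It held 25.3, 20.5 and 33.3 FPKM with MT and 9.05, 12.2 and 13.3 FPKM with nano-SiO2+MT. The nano-SiO2 mean was 4.84 times below the control and the nano-SiO2+MT mean 2.28 times below MT, so that plants with both sprays stood in the range of the control. The averaged log2 change was -1.48 ± 0.17 (limma adjusted p = 0.00847).

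Glyma.01G095232, trypsin inhibitor A on chromosome 1, held 12.6, 14.7 and 10.3 FPKM in control, 5.17, 5.93 and 10.2 FPKM with nano-SiO2, 37.6, 39.9 and 43.1 FPKM with MT and 15.3, 20.3 and 18.4 FPKM with both sprays. The third nano-SiO2 library reached almost to the lowest control library, while in the melatonin background the groups stood far apart. The averaged log2 change was -0.95 ± 0.15 (limma adjusted p = 0.0426), -0.78 without and -1.13 with melatonin. This was the only gene of the 9 with its larger change in the melatonin background.

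The remaining protease inhibitors did not share one direction. Of 37 genes in all, 19 were tested, and 0 were called higher and 2 lower, against 0.0248% and 0.00708% of all tested genes. The median averaged change was -0.09, against 0.04 over all tested genes. Above 0 were 7 of the 19, against 64.3% of all tested genes. Glyma.08G341600, which by its identifier neighbours the called Kunitz gene, changed by -0.52 (limma adjusted p = 0.581), and Glyma.08G341800 on the other side by -0.38 (limma adjusted p = 0.879). Glyma.08G341600 held 9.72, 11.4 and 6.33 FPKM in control and 3.98, 6.20 and 6.60 FPKM with nano-SiO2, which overlap. A pair of other Kunitz genes was called higher in the absence of melatonin. Glyma.09G155500 rose by 2.02 there (limma adjusted p = 0.0129) and differed by 0.25 with melatonin (adjusted p = 1), and Glyma.16G211700 rose by 1.42 (adjusted p = 0.0324) and differed by -0.50 with melatonin. Outside the nano-SiO2 group, Glyma.09G155500 reached 1 FPKM only in MT 3 and nano-SiO2+MT 3. Its passing the filter thus rested on the nano-SiO2 libraries, where it was high, so its call is no support. Closest to the threshold from outside was the Bowman-Birk protease inhibitor Glyma.18G231500, with an averaged change of 0.84 (limma adjusted p = 0.0591). It was below 1 FPKM in every library without nano-SiO2 and reached 1.88 FPKM with nano-SiO2+MT, so it passed the filter through silica libraries alone. Glyma.18G231500 was called higher with a pseudocount of 0.1 (2.09, limma adjusted p = 0.0407), quantile normalization (adjusted p = 0.0482), median-ratio scaling (0.0445) and moderation without trend (0.0417), and without nano-SiO2+MT 1 (0.0368).

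The calls were not equally firm. The storage proteins Glyma.07G014500 and Glyma.08G200100, Glyma.02G156800, the arginase Glyma.03G028000 and the Kunitz inhibitor Glyma.08G341700 stayed called in all 12 fits that each left out 1 library, with adjusted p up to 0.047. The copper amine oxidase Glyma.01G062400 and Glyma.08G230400 stayed called in 5 of the 12 fits. For the former these were the fits without control 1, nano-SiO2 3, MT 3, nano-SiO2+MT 1 or nano-SiO2+MT 2, and for the latter those without control 1, MT 1, MT 3, nano-SiO2+MT 2 or nano-SiO2+MT 3. Trypsin inhibitor A, Glyma.01G095232, stayed called in 2 of 12 (without control 3 or nano-SiO2 3), and the endochitinase Glyma.01G160100 in 2 of 12 (without MT 3 or nano-SiO2+MT 1). Their adjusted p rose to 0.184 at most in these fits, and all changes kept their sign. Glyma.02G156800 and Glyma.03G028000 each reached 1 FPKM in 2 of the 6 libraries without nano-SiO2, so their passing the filter rested on the silica libraries, and both stayed called with no filter.

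Control 1 and nano-SiO2 2 lay apart from the other libraries of their groups on the first principal component (-27.8 against 17.2 and 24.7, and 49.8 against 18.6 and 20.2), as did MT 3 (8.03 against -26.6 and -30.1) and nano-SiO2+MT 3 (4.21 against -28.8 and -29.6). Without control 1 and nano-SiO2 2 together, Glyma.02G156800 and Glyma.03G028000 were called, and the storage proteins and the Kunitz inhibitor Glyma.08G341700 missed the threshold at an adjusted p of 0.100, with log2 changes of 3.00, 2.71 and -1.48 that differed little from those of all 12 libraries. Summed FPKM per library ran from 522120 to 559092, and 25557 to 27660 genes per library reached 1 FPKM. Replicate libraries correlated at 0.958 to 0.992 over the tested genes. The absolute depth is unknown, since FPKM do not give counts, and the relative depth of the libraries, from the step between low values, was 0.848 to 1.27.

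The size of the change depended on the background in part of the 9 genes. In 8 of them the log2 change was larger without melatonin. Over all tested genes, libraries were separated in 4525 genes without melatonin and in 2705 with it, so clearer changes without melatonin were not particular to the 9. The share of all tested genes with the larger change without melatonin was not counted. The difference between backgrounds, tested as an interaction, passed for 3 of the 9: Glyma.07G014500 had an interaction of -2.48, a smaller rise with melatonin (limma adjusted p = 0.00105), Glyma.08G200100 of -2.20 (adjusted p = 0.0123) and Glyma.02G156800 of -1.61 (adjusted p = 0.0451). In these 3 genes every MT library stood above every control library. The same was true of Glyma.01G160100, Glyma.08G341700 and Glyma.01G095232, whose interaction did not pass. How many of all tested genes were separated between MT and control was not counted, so nothing is read from this. For the arginase Glyma.03G028000 (adjusted p = 0.490), the Kunitz inhibitor Glyma.08G341700 (0.489), the copper amine oxidase Glyma.01G062400 (0.620) and the endochitinase Glyma.01G160100 (0.646) no difference between backgrounds was detected, which does not show that the changes were equal. Tested within each background, 4 of the 9 passed in both (Glyma.07G014500, Glyma.08G200100, Glyma.02G156800 and Glyma.08G341700), 4 only without melatonin and Glyma.01G095232 only with it.

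The melatonin term of the same model gave each gene's change with MT, averaged over the nano-SiO2 backgrounds, from the same 12 libraries. The trypsin inhibitors rose with melatonin, Glyma.08G341700 by 1.62 (limma adjusted p = 0.000315) and Glyma.01G095232 by 1.44 (adjusted p = 0.000254), where nano-SiO2 lowered them. The copper amine oxidase Glyma.01G062400 fell by 1.11 (limma adjusted p = 0.000419), the arginase Glyma.03G028000 by 0.89 (adjusted p = 0.00505) and Glyma.08G230400 by 1.30 (adjusted p = 0.00466), where nano-SiO2 raised them. These 5 genes had called changes of opposite sign in 1 model, so a combined value between the single sprays follows in large part from that choice. Their mean FPKM under the combined spray was nearer the control than that of either spray alone, though hardly so in trypsin inhibitor A. In that gene, Glyma.01G095232, the control mean of 12.5 ± 2.18 FPKM (SD, n = 3) lay about midway between nano-SiO2 alone (7.09 ± 2.68) and the combined spray (17.98 ± 2.52), with MT alone at 40.2 ± 2.77. For the storage proteins, Glyma.02G156800 and the endochitinase the averaged melatonin change did not pass (adjusted p from 0.165 to 0.712).

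The additive model counts the difference between backgrounds as residual spread. When each group had its own mean and the average of both within-background changes was tested, 47 genes passed (0.166%), 29 higher and 18 lower. All 9 genes above were among them. Of the 47, 35 changed with the same sign in both backgrounds and 12 with opposite signs, and 24 had a called interaction. In 24 of the 47 the libraries were separated the same way in both backgrounds, 19 higher and 5 lower. The 47 were picked on the average of the same values, so this separation, found in 0.711% of all tested genes, is no further support. The 15 of these 24 that the additive model had not called had adjusted p from 0.0591 to 0.309 there. Averaged changes were 0.56 to 1.37 in the 12 higher and -0.81 to -0.62 in the 3 lower genes. Of the 15, Glyma.15G089000, Glyma.16G123400 and Glyma.18G231500 were below 1 FPKM in every library without nano-SiO2, and Glyma.07G147800 in every library with it. Glyma.07G050300 reached 1 FPKM without nano-SiO2 only in control 3. Their passing the filter rested on libraries of a single arm, so they are given as values.

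**Figure D2:**
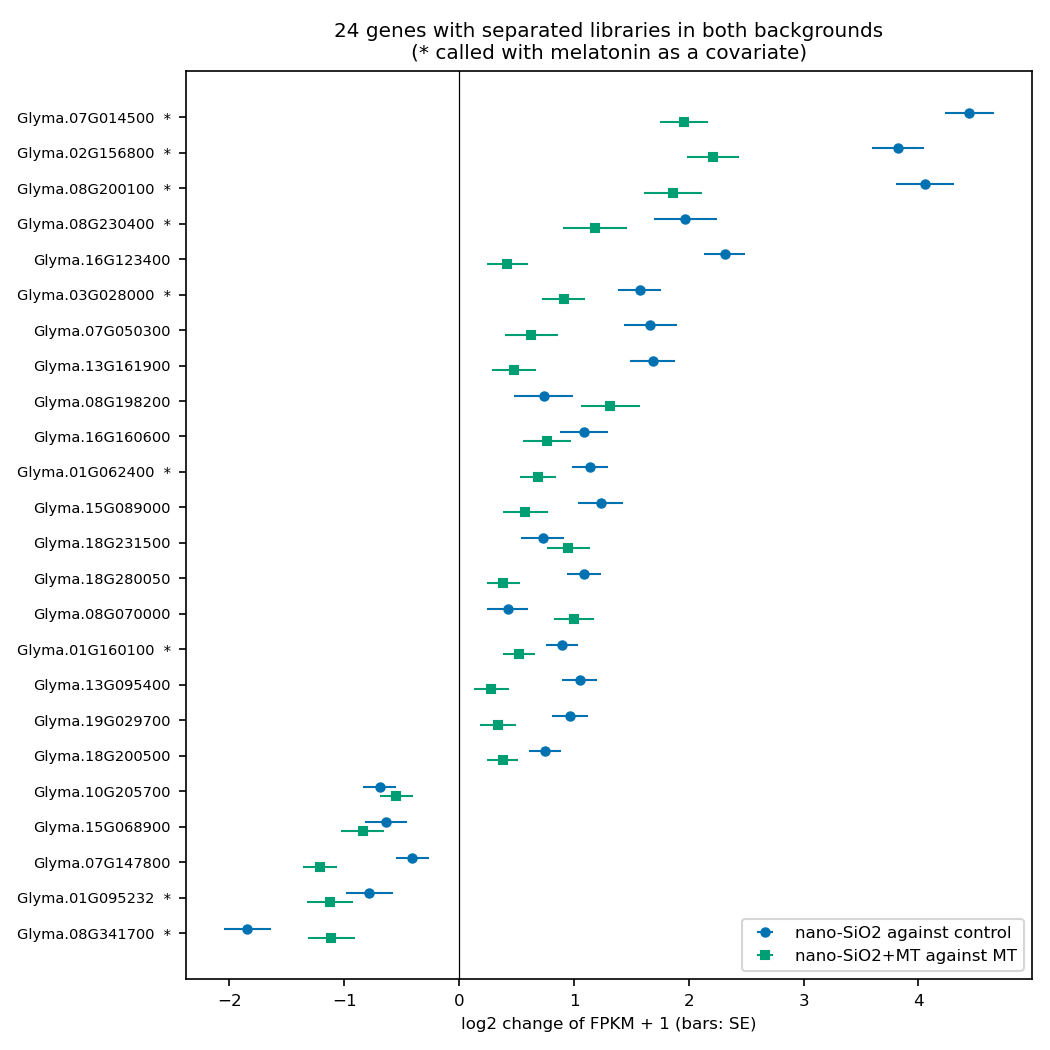
Log2 change of FPKM + 1 with nano-SiO2 in the background without melatonin (circles) and with it (squares) for the 24 genes that were called with a mean per group and whose libraries were separated the same way in both backgrounds; bars are standard errors and asterisks mark the 9 genes also called with melatonin as a covariate. Circles lie farther from 0 than squares in most genes, and 19 genes lie to the right and 5 to the left of 0.

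These 15 genes include several with a known kind of product. Glyma.18G200500, a vacuolar cation/proton exchanger that loads cations into the vacuole, was the most abundant of them. It held 45.4, 54.2 and 53.7 FPKM in control, 85.7, 95.1 and 78.5 FPKM with nano-SiO2, 62.2, 55.5 and 76.6 FPKM with MT and 84.8, 82.0 and 84.6 FPKM with nano-SiO2+MT. Both silica groups stood at about the same level, above MT and control, and the averaged change was 0.56 ± 0.11 (additive limma adjusted p = 0.141). Glyma.16G160600, a tryptophan aminotransferase-related protein, held 5.37, 7.54 and 8.38 FPKM in control, 13.2, 14.1 and 21.8 FPKM with nano-SiO2, 3.14, 3.91 and 4.74 FPKM with MT and 5.74, 7.58 and 8.86 FPKM with both, an averaged change of 0.93 (adjusted p = 0.0678). Glyma.08G070000, a DMR6-like oxygenase of a family known in Arabidopsis for hydroxylating salicylic acid, held 4.103, 6.03 and 5.42 FPKM in control, 7.30, 7.40 and 6.96 FPKM with nano-SiO2, 12.5, 9.04 and 6.91 FPKM with MT and 18.95, 18.6 and 21.0 FPKM with both. It stood highest under the combined spray, with an averaged change of 0.71 (additive limma adjusted p = 0.188).

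Glyma.13G161900, an uncharacterized protein gene, went from 16.5, 26.5 and 24.7 FPKM in control to 89.2, 72.4 and 61.2 FPKM with nano-SiO2, but only from 18.8, 15.9 and 21.8 FPKM with MT to 30.5, 25.3 and 24.02 FPKM with both (averaged change 1.08, additive limma adjusted p = 0.173). The receptor-like kinase gene Glyma.08G198200 changed by 0.74 without and 1.31 with melatonin, and the glycosyltransferase gene Glyma.19G029700 by 0.97 and 0.34. Of the 15 genes, 10 had the larger change without melatonin, the background in which more of all tested genes were separated. An interaction was called for 1, the hypothetical gene Glyma.16G123400 (limma adjusted p = 0.00252). Glyma.16G123400 passed the filter through the nano-SiO2 libraries alone (3.81, 5.64 and 3.25 FPKM, against at most 0.666 FPKM elsewhere), so that this call is no support.

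Genes that nano-SiO2 changed in 1 background mostly did not carry over to the other. Without melatonin, nano-SiO2 against control called 139 genes (0.492%), 110 higher and 29 lower. With melatonin, nano-SiO2+MT against MT called 83 genes (0.294%), 19 higher and 64 lower. These contrasts share no library, though they share the estimate of spread. Of the 139 genes 36.7% had the same sign with melatonin, and of the 83 genes 19.3% had the same sign without it, against 47.6% of all tested genes. The lists had 33 genes in common, 23.7% of the first and 39.8% of the second. Of these 33, 29 changed in opposite directions and 4 in the same direction, and those 4 were the storage proteins Glyma.07G014500 and Glyma.08G200100, Glyma.02G156800 and the Kunitz inhibitor Glyma.08G341700.

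The same held for the library values without a test. Libraries were separated in both backgrounds in the same direction in 201 genes (0.711%; 145 higher, 0.513%, and 56 lower, 0.198%) and in opposite directions in 392 genes (1.39%), of which 312 were higher without and lower with melatonin. After quantile normalization the 201 became 219, with 110 higher and 109 lower, and after median-ratio scaling 222, with 110 higher and 112 lower, so the excess of higher genes depended on the scaling. The 9 called genes stayed called under both scalings, among 15 calls (10 higher, 5 lower) and 14 calls (9 higher, 5 lower). Opposite separation stayed more frequent than same-way separation in all 12 fits that left out 1 library and in the 6 other settings run. Of these settings, the pseudocount cannot change the order of libraries, and the filters only added or dropped genes.

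**Figure D3:**
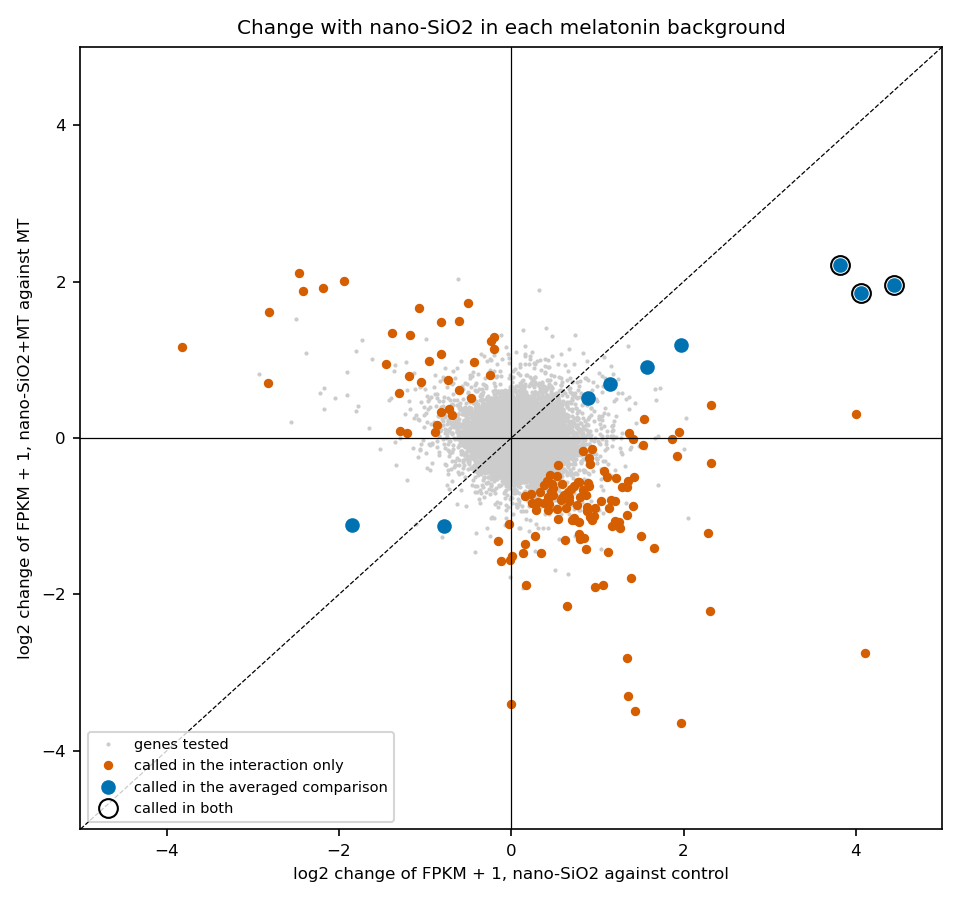
Log2 change of FPKM + 1 of the 28260 tested genes with nano-SiO2 against control (horizontal) and with nano-SiO2+MT against MT (vertical); the dashed line marks equal changes. The 9 genes of the averaged comparison lie in the quadrants of equal sign, 7 upper right and 2 lower left, and most of the 148 genes called in the interaction lie in the quadrants of opposite sign.

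The interaction called 148 genes (0.524%), 136 with opposite signs in the backgrounds and 12 with the same sign. Iron superoxide dismutase Glyma.20G196900, a plastid enzyme that removes superoxide, held 0.535, 0.301 and 0.473 FPKM in control, 26.0, 20.7 and 24.6 FPKM with nano-SiO2, 33.4, 26.0 and 40.3 FPKM with MT and 5.27, 2.52 and 4.68 FPKM with both. It thus rose by 4.104 without and fell by 2.75 with melatonin (interaction adjusted p = 1.48e-07, limma), and its averaged change was 0.68 (adjusted p = 0.930). Ferritin-2 Glyma.01G124500, an iron store of the plastid, went the other way. It held 108, 87.7 and 96.2 FPKM in control, 16.1, 14.6 and 20.0 FPKM with nano-SiO2, 8.24, 11.6 and 9.74 FPKM with MT and 44.3, 48.5 and 43.8 FPKM with both. Of 8 tested ferritins 5 fell without melatonin, 4 rose with it and 0 were called in the average. Of all tested genes 0.492% were called without and 0.294% with melatonin, in either direction.

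Lipoxygenases, which oxidise fatty acids and of which some serve soybean leaves as storage proteins, were a family with calls in 1 background. Of 22 tested members 6 rose without melatonin and 0 were called with it. The median change was 0.57 without and 0.00 with melatonin, and 0.27 in the average, with 0 called and 8 at an unadjusted p under 0.05. Over all tested genes these medians were 0.10, -0.004 and 0.04. Of all tested genes 0.492% were called without and 0.294% with melatonin, and 5.4% had an unadjusted p under 0.05 in the average. Glyma.13G347800 held 0.246, 1.14 and 0.863 FPKM in control, 5.77, 4.74 and 5.97 FPKM with nano-SiO2, 2.23, 1.45 and 3.15 FPKM with MT and 2.05, 1.27 and 1.95 FPKM with both, and its interaction passed (limma adjusted p = 0.00572). The most abundant member, Glyma.15G026500, held 83.7, 141 and 142 FPKM in control and 313, 267 and 240 FPKM with nano-SiO2, while its MT (147, 86.6 and 134 FPKM) and nano-SiO2+MT libraries (141, 87.4 and 136 FPKM) overlapped. The plastid 13S-lipoxygenase Glyma.11G130300 was separated in both backgrounds, with changes of 0.76 and 0.72, and missed the threshold in the average (limma adjusted p = 0.125).

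Genes with a profile like that of the storage proteins in the silica-only plants included the RuBisCO-associated protein Glyma.01G142400, chosen after its values were seen. It held 4.43, 6.38 and 6.38 FPKM in control and 115, 122 and 85.1 FPKM with nano-SiO2, close in size to the rise of VSP25. With MT it held 36.7, 28.1 and 30.8 FPKM and with both sprays 48.1, 30.2 and 42.0 FPKM, which overlap. Its change was 4.01 without and 0.30 with melatonin (interaction adjusted p = 1.59e-05, limma). The additive model did not call its average (2.15, adjusted p = 0.482), while the fit with a mean per group did (limma adjusted p = 6.79e-06). A beta-amylase of starch breakdown, Glyma.06G301500, also changed by 1.55 without and 0.24 with melatonin (interaction adjusted p = 0.0209). Its average of 0.89 passed with a mean per group (limma adjusted p = 0.00605) but not in the additive model (0.380).

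**Figure D4:**
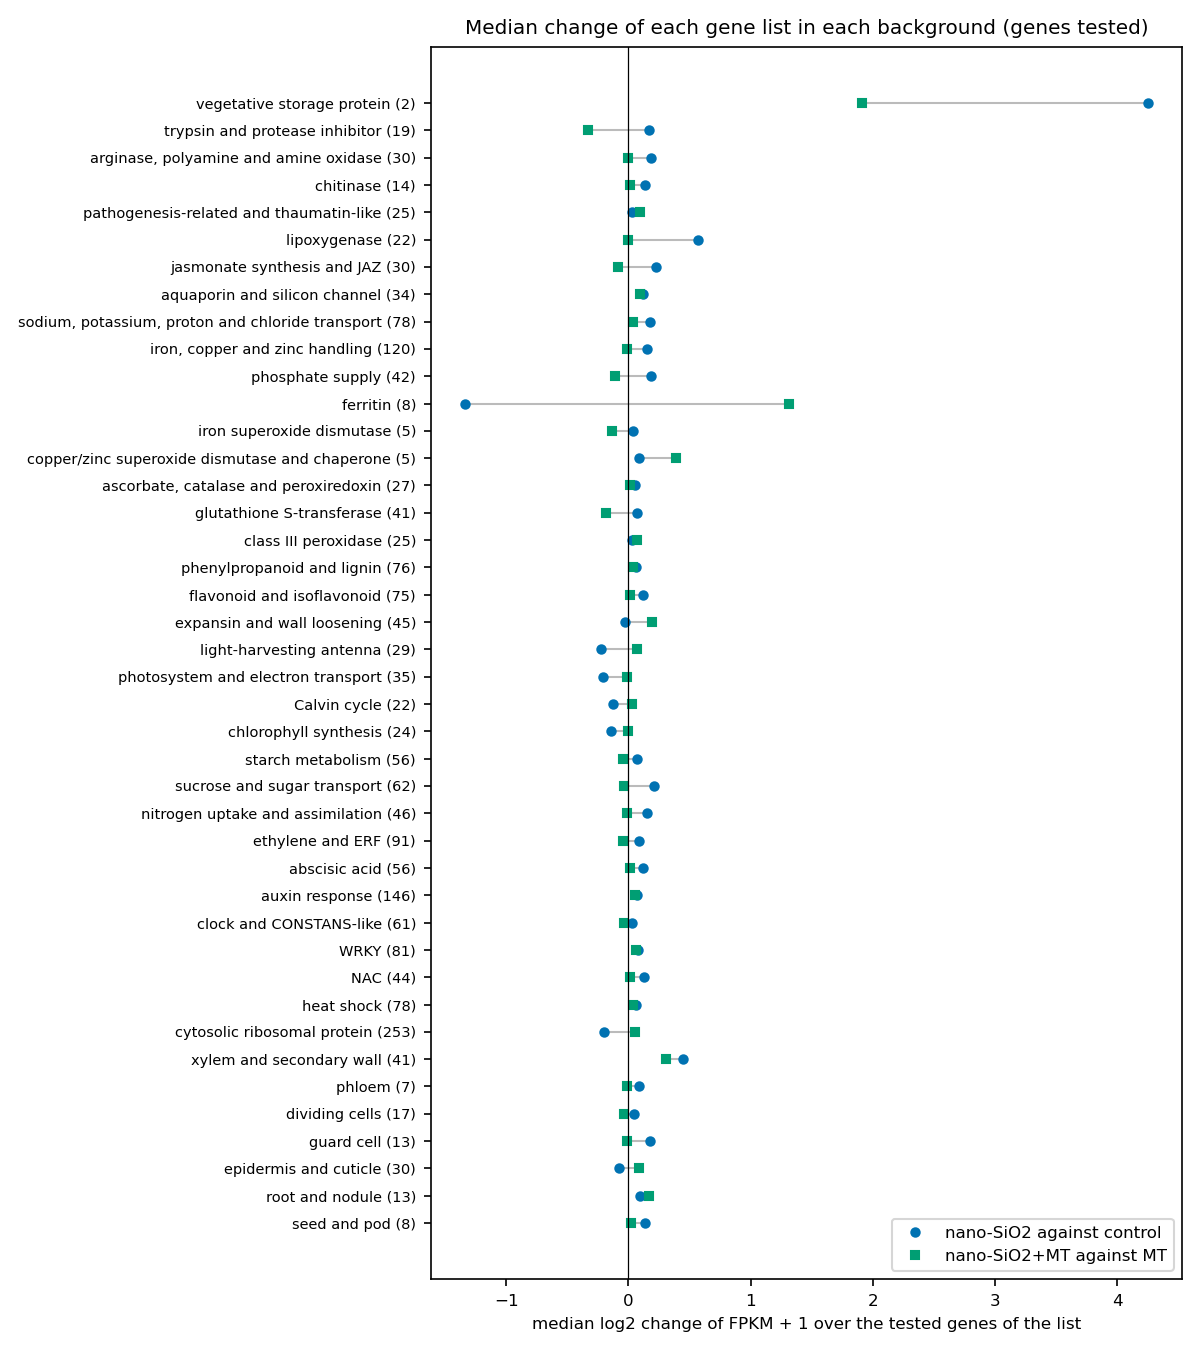
Median log2 change of FPKM + 1 over the tested members of each of 42 gene lists (number of members in brackets), without melatonin (circles) and with it (squares). The vegetative storage proteins stand at 4.25 and 1.91, the ferritins on opposite sides of 0 at -1.34 and 1.31, and most other lists lie near 0 in both.

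Of 42 gene lists, 38 had no member called in the averaged comparison, among them all lists of photosynthesis, antioxidants, ion transport, hormones and regulators. Only 9 of 28260 tested genes (0.0318%) were called, so the lack of a call says little about any list. Some of these lists had a member called with a mean per group, such as Glyma.18G200500 of ion transport (limma adjusted p = 0.0413). Silicon and water channels (34 tested) had a median change of 0.07, and the silicon transporter NIP2-2 Glyma.18G259500 held 37.9, 43.0 and 36.3 FPKM in control, 33.7, 32.1 and 23.4 FPKM with nano-SiO2, 22.3, 22.7 and 26.4 FPKM with MT and 22.7, 28.4 and 20.2 FPKM with both. Its averaged change was -0.20 (limma adjusted p = 0.881). Light-harvesting antenna proteins (29 tested) had medians of -0.22 without and 0.07 with melatonin, photosystem and electron transport genes (35 tested) -0.20 and -0.01, and Calvin cycle genes (22 tested) -0.13 and 0.03. The most abundant RuBisCO small chain gene, Glyma.19G046800, differed by -0.33 in the average (limma adjusted p = 0.887). Catalase Glyma.06G017900 differed by 0.12 (adjusted p = 0.892). Cytosolic ribosomal protein genes (253 tested) had medians of -0.20 and 0.05. The median over all tested genes was 0.10 without and -0.004 with melatonin.

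Marker genes of xylem and secondary wall had 0 calls among 41 tested. Their median averaged change was 0.35 (0.45 without and 0.31 with melatonin), against 0.04 over all tested genes. Of the 41, 39 (95.1%) had an averaged change above 0, against 64.3% of all tested genes, and 11 (26.8%) had an unadjusted p under 0.05, against 5.4%. Their summed FPKM ran from 199 to 296 in control, 247 to 498 with nano-SiO2, 102 to 142 with MT and 116 to 255 with both, so the groups overlapped in each background. Of the 41, 3 were separated the same way in both backgrounds, all higher, against 0.513% of all tested genes. These were the fasciclin-like Glyma.05G161900 (0.94, limma adjusted p = 0.204), Glyma.11G148200 (0.50, adjusted p = 0.344) and Glyma.11G147800 (1.04, adjusted p = 0.482). With a replicate block Glyma.05G161900 was called (limma adjusted p = 0.0492). In a whole leaf, a larger share of vein cells and more RNA per cell cannot be told apart, and the part of these markers in the 9 calls was not tested. Summed RuBisCO small chain and antenna FPKM, the mesophyll transcripts that mark a leaf, were lowest in nano-SiO2 2. Phloem, dividing-cell, guard-cell, epidermis, seed and root lists had 0 calls in the average.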

How the data were processed

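Leaf messenger RNA, selected with oligo(dT), was sequenced in 12 libraries, 3 per group. The authors deposited one table of FPKM values; its aligner and quantifier are not named in these sources. The submitters' processing notes name DESeq2 1.34.0 without its role, and R 4.1.2. A p-value and a q-value column that the authors deposited name no comparison and stayed unused. Values were taken as log2(FPKM + 1), the filter asked for 1 FPKM or more in 3 or more libraries, and tests were run with limma 3.58.1 in R 4.3.3 (eBayes with trend and robust; two-sided; Benjamini-Hochberg; threshold 0.05). The averaged effect came from an additive model of melatonin and nano-SiO2, and within-background changes and the interaction from a mean per group. "Separated" means that all 3 libraries of one group lie above all 3 of the other.

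The labels say "biological replicate" but name no plants or pots, so p-values reflect variation among these libraries, which may be technical. All libraries carry the same batch label. The comparison, members and 42 lists (matched by description) were chosen with earlier results of these data known. Genes were named by rule: the 10 largest rises and falls among genes changed the same way with at least 5 FPKM in the higher arm, up to 3 called members per list, the most abundant member of lists without a call, and 6 interaction genes; the 15 further genes of the fit with a mean per group and 17 others were added after their values were seen. The fits were tested on simulated data. Alternatives covered pseudocount, filter, scaling, moderation, model, replicate block and omitted libraries. Identifiers are of Wm82.a4.v1; 0 of 59048 RefSeq genes matched, so no sequence is shown.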

Additional observations from a re-analysis of the deposited data

Results flagged for a closer look

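For 15 named genes the change with nano-SiO2 differed between the melatonin backgrounds by the interaction test (limma, adjusted p under 0.05; values are the log2 change with melatonin minus that without). Among the called genes these were Glyma.07G014500 (-2.48), Glyma.08G200100 (-2.20) and Glyma.02G156800 (-1.61), all of which rose in both backgrounds and rose less with melatonin. Among genes with opposite changes, the iron superoxide dismutases Glyma.20G196900 (-6.86) and Glyma.10G193500 (-4.52) and the uncharacterized Glyma.05G011200 (-4.15) rose without and fell with melatonin. The ferritins Glyma.01G124500 (4.58), Glyma.03G050100 (4.31) and Glyma.07G155200 (3.95) fell without and rose with it. The RuBisCO-associated protein Glyma.01G142400 (-3.70), the lipoxygenase Glyma.13G347800 (-2.15), the Kunitz gene Glyma.16G211700 (-1.92), the hypothetical Glyma.16G123400 (-1.89) and the beta-amylase Glyma.06G301500 (-1.30) rose without melatonin and did not pass with it. Glyma.19G231100, a hypothetical protein gene, differed by -3.40: it was listed at 0 in the 9 libraries outside the MT group and at 7.10, 9.32 and 13.2 FPKM in the MT libraries. It passed the filter through the MT libraries alone, and Glyma.16G123400 through the nano-SiO2 libraries alone. Glyma.10G193500 passed through the nano-SiO2 and MT libraries, and was below 1 FPKM in every control and nano-SiO2+MT library. The differences of these genes follow in part from the filter and are given as values.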

How the results depend on the processing

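The averaged comparison gave 9 calls, all changed the same way. Both counts became 15 with quantile normalization, 14 with median-ratio scaling and 2 without control 1 and nano-SiO2 2 together; with a mean per group they became 47 and 24. Leaving out 1 library gave 5 to 11 for both, with 5 when control 2, nano-SiO2 1, nano-SiO2 2 or MT 2 was left out. Without melatonin the 139 calls became 32 without control 1 and nano-SiO2 2 together and 44 to 172 with 1 library left out. With melatonin the 83 became 53 in a fit of only its 6 libraries and 49 to 98 with 1 library left out. The 148 interaction calls became 73 without control 1 and nano-SiO2 2 together and 89 to 213 with 1 library left out. The 201 genes separated the same way and the 392 separated in opposite directions became 519 and 667 without that pair, and 264 to 461 and 485 to 1008 with 1 library left out, where fewer libraries make separation easier. The causes of the other shifts were not tested. Glyma.08G230400, Glyma.01G160100 and Glyma.01G095232 missed the threshold with no filter on low values. The pseudocount, the stricter filter and the moderation kept all 9 calls, and no named gene that was called changed sign.

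With the replicate number as a replicate block, 13 genes were called (11 higher, 2 lower), 8 of them among the 9; Glyma.01G095232 was lost, and the xylem marker Glyma.05G161900, Glyma.07G205400 (ervatamin-B), Glyma.10G205700, Glyma.16G160600 and Glyma.18G231500 were gained. Residuals of same-numbered libraries correlated at over 0.1 in 9 of 18 pairs (range -0.34 to 0.527), and 6 of 12 libraries correlated best with their own number, so the data do not settle a pairing, and the labels state none. FPKM without counts leave the error of genes near 1 FPKM unknown.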
